A study of Homo sapiens with 12 samples.

Results

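The genes described here are 10 members of the transforming growth factor beta (TGF-beta) superfamily and its regulation, namely TGFB1, TGFB2, TGFB3, TGFBR1, TGFBR2, INHBA, FST, BMP2, BMP4 and GDF15. They were found by matching each symbol to its Ensembl identifier in the gene tables of U87 and U118, and all 10 were present among the 58174 genes of each table. Both U87 and U118 are established lines grown from human glioblastoma, a brain tumour treated with the alkylating drug temozolomide (TMZ). mRNA sequencing compared sensitive with resistant cells of each line, with 3 libraries in each of the 4 groups and 12 libraries in all. The sensitive cells were the control cells of each line, sorted as CD133-CD15- and kept in medium with 10% serum and BMP2. The resistant cells were the aggregations that formed from such sorted cells kept in the same serum and BMP2, weeks after the start of TMZ exposure at 50 μM. Exogenous BMP2 protein was therefore present in all 4 groups, and no library gives the genes without it. The labels do not say that the 3 libraries of a group came from separate cultures, so p-values measure the spread between libraries, which may be technical.

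Ligands of the TGF-beta superfamily are secreted dimers that bring together type I and type II serine/threonine kinase receptors, which phosphorylate SMAD proteins that then act on transcription. TGF-beta and activin ligands signal mainly through one set of SMADs and bone morphogenetic proteins (BMPs) through another. TGF-beta is released in a latent form, activins are held back by follistatin, and BMPs by antagonists such as noggin and gremlin. In glioblastoma, TGF-beta is known for its effects on invasion and on stem-like cells, BMPs for driving differentiation, and GDF15 as a cytokine induced by many kinds of cell stress.

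The deposited values were in TPM, which is a share of a library's transcripts corrected for their length. Read counts cannot be recovered from it, so sequencing depth is unknown and the errors below are the spread between libraries. The tables of the lines were deposited separately, so levels set side by side across lines rest on their having been made alike. From 13270 to 15290 genes reached 1 TPM in a library. The U118 resistant libraries stood apart from the sensitive libraries of their own line. Spearman's rho over 16382 genes lay between 0.808 and 0.839 for U118 resistant against U118 sensitive libraries, between 0.907 and 0.914 against U87 resistant, and between 0.895 and 0.909 against U87 sensitive libraries. Sensitive and resistant U87 libraries lay between 0.944 and 0.952, and libraries of the same group between 0.960 and 0.988. In U118, 79 genes were at 10 TPM or more in all sensitive and under 0.1 TPM in all resistant libraries, and 59 of them were under 0.1 TPM in all 6 U87 libraries. The converse held for 38 genes, of which 21 were at 10 TPM or more in all 6 U87 libraries. In U87 the same counts were 0 and 2. A change with TMZ and a difference in the origin of the cells cannot be told apart in U118 from these files, and every U118 change below rests on the 3 resistant libraries. Resistant replicate 1 of U118 also differed from the other two, with 15193 genes at 1 TPM against 13270 and 13545. Mitochondrially encoded genes took 13.2% of its TPM against 29.9% and 26.1%. Over all groups these genes took from 7.42% to 29.9% of the TPM.

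Markers of the lines and of other cell types were read before the members. VIM ran from 4425 to 7149 TPM and CD44 from 311 to 868 TPM over the 12 libraries, while GFAP stayed below 0.7 TPM and SOX2 was listed at 0 in all 6 U87 libraries. The astrocytic marker GFAP was thus near 0 in the lines. PTPRC and CD3E, which define blood cells, were at or near 0 in all 12 libraries, while CD68, a lysosomal protein of macrophages, ran from 170.2 to 379.1 TPM. Of the 2 blood cell markers tested in U118, 1 was called higher, against 8.64% of all genes tested there. This was CSF1R, the receptor of a macrophage growth factor. It measured 1.43, 1.41 and 1.34 TPM in U118 sensitive and 15.2, 9.95 and 9.47 TPM in U118 resistant libraries, and 5.47 to 6.75 TPM in U87, where it was not called. The 4 endothelial markers together reached at most 4.63 TPM, in a U118 resistant library. The 1 tested in U118, TEK, an endothelial receptor kinase, was called higher, against the same 8.64% of all genes. It went from at most 0.0573 TPM in sensitive to 3.93, 1.37 and 1.46 TPM in resistant libraries, through which alone it passed the filter. PECAM1, under the filter, went the other way in U118. It measured 0.985, 0.979 and 0.770 TPM in sensitive and 0.594, 0.314 and 0.500 TPM in resistant libraries. CDH5 was listed at 0 in all U118 libraries, and VWF was at most 0.108 TPM there. The 10 fibroblast markers summed to between 240.6 and 243.5 TPM in U87 sensitive, 459.5 and 546.4 in U87 resistant, 1389 and 1746 in U118 sensitive and 301.3 and 673.8 in U118 resistant libraries, with DCN at 0 in U87 sensitive libraries. They moved in opposite directions in the lines, with 5 of 6 tested higher in U87 and 8 of 9 tested lower in U118, against 3.03% and 26.6% of all genes. Of those tested, POSTN passed the filter in U87 through the resistant libraries alone. In U118, POSTN and PDGFRA passed it through the sensitive libraries alone. They could be tested there only because they were high in those groups. The marker values stand beside the U118 changes below, and those of fibroblasts beside FST, TGFB2 and INHBA in both lines, and their part in those results was not tested. PROM1, which encodes CD133, stayed at or below 0.0797 TPM. FUT4, whose enzyme makes CD15, lay between 1.36 and 2.19 TPM in the other groups and at most 0.0463 TPM in U118 resistant libraries, where it was called lower. It passed the filter in U118 through the sensitive libraries alone, so it could be tested there only because it was high in them.

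Promoters of GDF15, FST and INHBA are shown because these genes had the widest ranges over the libraries. Each window is taken from RefSeq on GRCh38.p14 and runs from 250 bases before the start site to 50 bases from it on, written 5′ to 3′ on the gene's own strand. Capitals mark matches on either strand to short motifs. These were the TATA box with the letters TATAAA, the SMAD-binding core with the letters CAGAC, and the motif of BMP-type SMADs with the letters GGCGCC. The AP-1 site was searched as TGANTCA and the core of the cAMP response element as TGACGT. Windows were at hand for 9 of the 10 genes (20 windows), BMP2 being the gene without one. The windows are GDF15 at chr19:18385908-18386207 on the forward strand, FST at chr5:53480379-53480678 on the forward strand and INHBA at chr7:41703041-41703340 on the reverse strand.
GDF15: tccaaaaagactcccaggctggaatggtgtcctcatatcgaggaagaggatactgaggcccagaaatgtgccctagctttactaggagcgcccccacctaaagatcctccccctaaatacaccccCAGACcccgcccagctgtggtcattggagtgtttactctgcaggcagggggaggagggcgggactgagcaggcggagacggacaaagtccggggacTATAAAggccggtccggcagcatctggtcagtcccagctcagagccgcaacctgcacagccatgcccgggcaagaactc
FST: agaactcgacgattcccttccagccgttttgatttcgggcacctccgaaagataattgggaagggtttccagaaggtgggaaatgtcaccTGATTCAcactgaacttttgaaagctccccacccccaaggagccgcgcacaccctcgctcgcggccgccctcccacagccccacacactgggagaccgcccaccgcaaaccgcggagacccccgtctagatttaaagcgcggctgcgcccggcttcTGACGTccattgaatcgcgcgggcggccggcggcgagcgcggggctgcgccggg
INHBA: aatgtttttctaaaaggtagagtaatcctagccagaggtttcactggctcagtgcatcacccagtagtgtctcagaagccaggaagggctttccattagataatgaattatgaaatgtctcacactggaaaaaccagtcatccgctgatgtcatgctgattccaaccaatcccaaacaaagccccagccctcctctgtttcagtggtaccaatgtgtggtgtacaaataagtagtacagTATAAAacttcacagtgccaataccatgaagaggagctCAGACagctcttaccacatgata
The GDF15 window held TATAAA at -29 and CAGAC at -125 from the start site. The INHBA window held TATAAA at -11 and CAGAC at 28, beyond the start site. The FST window held TGATTCA, a match to the AP-1 letters, at -160 and TGACGT at -4, and neither TATAAA nor CAGAC. Of all 34796 promoter windows of this length, 11.6% held TATAAA, 45.3% CAGAC, 19.2% GGCGCC, 7.73% TGANTCA and 7.97% TGACGT. The TGFB2 window and the second of the TGFB3 windows also held matches to the TATA box and to the response element core. A match describes the letters only, and no factor was measured on these promoters.

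GDF15 was the 1 member called higher in both lines on the values as deposited, and it rose from similar low levels to very different high ones. After rescaling each library by its median ratio to the others, TGFBR1 and TGFB3 were called higher in both lines too. GDF15 (ENSG00000130513, chromosome 19, 18374731 to 18389176, forward strand) encodes a distant member of the family, a circulating cytokine induced by stress whose receptor is GFRAL with RET. In U87 it measured 3.38, 2.35 and 2.44 TPM in the sensitive libraries and 27.4, 31.4 and 27.3 TPM in the resistant libraries. In U118 it measured 1.28, 2.10 and 1.36 TPM in the sensitive and 435.3, 405.1 and 427.4 TPM in the resistant libraries. All resistant libraries were high and all sensitive ones low, with no overlap in either line. Mean TPM was 10.6-fold higher in U87 (28.7 ± 2.36 against 2.72 ± 0.569, SD, n = 3 each) and 267-fold higher in U118 (422.6 ± 15.6 against 1.58 ± 0.450, SD, n = 3 each). On the log2(TPM + 1) scale, which understates changes of low genes, the rise was 3.005 (SE 0.157, adjusted p = 6.93e-05) in U87 and 7.37 (SE 0.213, adjusted p = 1.88e-07) in U118. The rise in U118 exceeded that in U87 by 4.37 (SE 0.244, adjusted p = 3.51e-08). Without U118 resistant replicate 1 the rise in U118 was 7.35 (adjusted p = 1.16e-06). GFRAL, named after its values were seen, was listed at 0 in all 12 libraries. The GDF15 rise in U118 was already known from these data when the gene was chosen, so it is given as a description of its size.

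The change in GDF15 also altered its place among the secreted members. In sensitive cells its TPM was 0.0123 of that of TGFB1 in U87 and 0.0156 in U118. In the resistant cells the ratio was 0.117 ± 0.00884 in U87 and 2.60 ± 0.978 in U118 (SD, n = 3 each), so GDF15 lay above TGFB1 in each U118 resistant library, from 1.88 to 3.71 times its TPM. The gene whose pattern over the 12 libraries was closest to that of GDF15, among 16381 compared, was PI3, an elastase inhibitor, with a root mean square difference of 0.67 on the centred log2 scale. ALDH1A3, a retinaldehyde dehydrogenase, followed at 0.72 and IL1B, an inflammatory cytokine, at 0.87. PI3 averaged 0.111, 13.9, 0.150 and 88.3 TPM in U87 sensitive, U87 resistant, U118 sensitive and U118 resistant libraries.

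**Figure D1:**
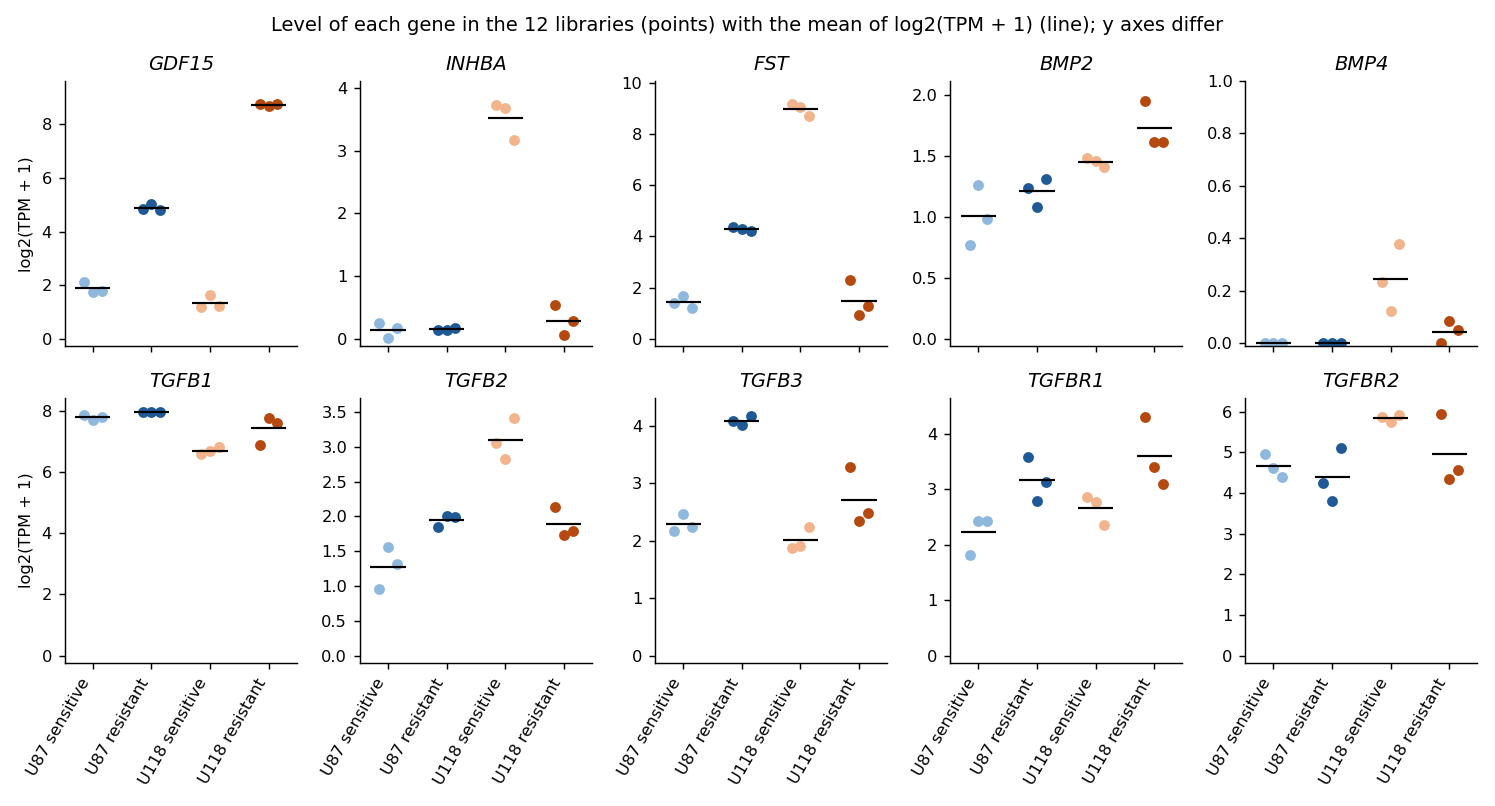
Level of each of the 10 genes as log2(TPM + 1), with a point for each of the 3 libraries of a group and a line at the group mean. The y axes differ between genes. GDF15 is high in the resistant cells of both lines, FST is high in U87 resistant and U118 sensitive cells, and INHBA is above 1 in U118 sensitive cells only.

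FST, which encodes the activin-binding protein follistatin, changed in opposite directions in the lines. FST (ENSG00000134363, chromosome 5, 53480409 to 53487134, forward strand) measured 1.68, 2.25 and 1.30 TPM in U87 sensitive and 19.4, 18.3 and 17.7 TPM in U87 resistant libraries. U118 values of FST were 574.9, 535.8 and 409.9 TPM in sensitive and 3.96, 0.893 and 1.41 TPM in resistant libraries. The groups did not overlap in either line, with the resistant libraries above in U87 and below in U118. Mean TPM rose 10.6-fold in U87 (18.5 ± 0.875 against 1.74 ± 0.475, SD, n = 3 each) and was 242.7-fold lower in U118 resistant cells (2.09 ± 1.64 against 506.8 ± 86.3, SD, n = 3 each). The log2 change was 2.84 (SE 0.168, adjusted p = 8.53e-05) in U87 and -7.47 (SE 0.349, adjusted p = 8.72e-07) in U118. The changes differed between the lines by -10.32 (SE 0.423, adjusted p = 3.18e-09). The fall was -7.88 without U118 resistant replicate 1 (adjusted p = 1.16e-06). FST in U118 resistant cells thus stood near its U87 sensitive level, at 0.06 apart on the log2 scale, across tables deposited separately. The summed fibroblast markers moved in the same direction as FST in each line, and POSTN, one of them, was among the 3 genes closest to FST over the libraries (0.98), after SERINC2 (0.89) and the imprinted gene MEST (0.94). Their part in the FST values was not tested. In bulk libraries a smaller share of FST-expressing cells and less FST mRNA per cell cannot be told apart.

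INHBA, which encodes the beta A subunit that dimerises to activin A, reached 1 TPM in U118 sensitive cells only. INHBA (ENSG00000122641, chromosome 7, 41667168 to 41705834, reverse strand) measured 12.2, 11.7 and 8.03 TPM in U118 sensitive libraries and 0.451, 0.0415 and 0.220 TPM in U118 resistant libraries. In U87 it measured 0.195, 0.0174 and 0.124 TPM in sensitive and 0.1104, 0.1096 and 0.127 TPM in resistant libraries, under the filter of 1 TPM in 3 libraries, and it was not tested there. Mean TPM in U118 was 44.9-fold lower in resistant cells (0.238 ± 0.205 against 10.7 ± 2.30, SD, n = 3 each), and the log2 change was -3.23 (SE 0.243, adjusted p = 9.99e-06). INHBA passed the filter in U118 through its sensitive libraries alone, so it could be tested there only because it was high in that group. With any of those 3 libraries left out it was not tested. The change in U118 differed from that in U87 by -3.24 (SE 0.247, adjusted p = 5.64e-07), and was -3.35 in U118 without resistant replicate 1 (adjusted p = 2.72e-05). The 3 genes closest to INHBA were SERP2 (0.13), ZNF682 (0.14) and ZNF229 (0.14), which averaged from 8.31 to 8.87 TPM in U118 sensitive cells and at most 0.00460 TPM in the other groups. INHA, the inhibin alpha subunit named after its values were seen, stayed below 0.34 TPM in all 12 libraries.

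Follistatin mRNA exceeded that of the activin subunit it neutralises in every library. In U118 sensitive cells FST was at 47.9 ± 2.81 times the TPM of INHBA (SD, n = 3). In U118 resistant cells, where both had fallen, it was 8.78 and 6.42 times that of INHBA in replicates 1 and 3, and in replicate 2 INHBA was under 0.1 TPM and no ratio was formed. In U87 resistant cells it was 161 ± 19.1 times (SD, n = 3), with INHBA near 0.1 TPM. In U87 sensitive replicates 1 and 3 it was 8.58 and 10.5 times, with no ratio formed in replicate 2. Read as INHBA over FST, which every library gives, the ratio was 0.0196 to 0.0219 in U118 sensitive and 0.0465 to 0.156 in U118 resistant libraries, with no overlap. The resistant ratios rest on INHBA at 0.0415 to 0.451 TPM and FST at 0.893 to 3.96 TPM, so no difference is read from them. In U87 it was 0.117, 0.00774 and 0.0951 in the sensitive and 0.00568 to 0.00717 in the resistant libraries. Sensitive replicate 2 thus lay next to the resistant ones, and with INHBA at 0.0174 to 0.195 TPM in U87 no difference is read there. With 3 against 3 libraries an exact two-sided permutation test cannot go below 0.1, and none was run on the ratios. Of the activin receptors, named after their values were seen, ACVR2A fell in U118 by 1.09 (SE 0.287, adjusted p = 0.0120), a call not made after median-ratio scaling. ACVR1B changed by -0.16 (SE 0.292, adjusted p = 0.668).

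**Figure D2:**
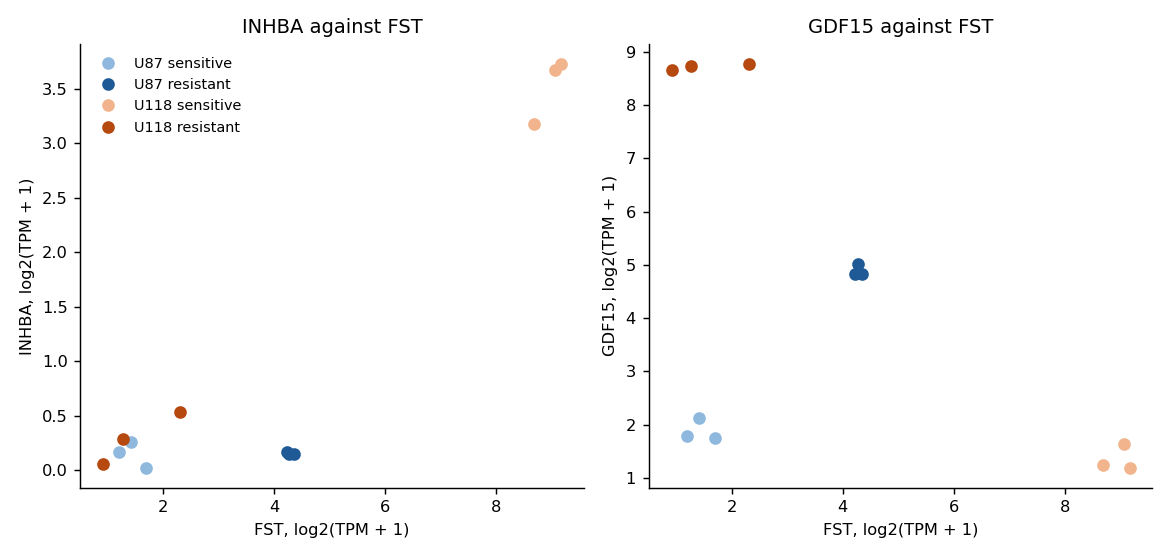
Left, INHBA against FST, and right, GDF15 against FST, each as log2(TPM + 1), with a point for each of the 12 libraries coloured by group. U118 sensitive libraries lie at high FST and high INHBA with low GDF15, and U118 resistant libraries at low FST and low INHBA with high GDF15. U87 resistant libraries sit at intermediate FST and GDF15.

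TGFB1 carried nearly all TGF-beta ligand mRNA in each group. TGFB1 (ENSG00000105329, chromosome 19, 41301587 to 41353911, reverse strand) encodes the prototype ligand. It measured 233, 206.1 and 219.8 TPM in U87 sensitive and 244.8, 247.4 and 244.5 TPM in U87 resistant libraries. The groups did not overlap, but the log2 change was 0.16 (SE 0.0669, adjusted p = 0.0972) and not called. The U118 values of TGFB1 were 94.4, 100.8 and 111.3 TPM in sensitive and 117.3, 215.3 and 194.3 TPM in resistant libraries, all above the sensitive ones. The log2 change of 0.73 (SE 0.259, adjusted p = 0.0405) was under the required change of 1, and it was 0.998 without resistant replicate 1 (adjusted p = 0.00106). It was called after median-ratio scaling, at 1.30. The difference between the lines was 0.57 (SE 0.273, adjusted p = 0.121). Exons of HNRNPUL1 overlap TGFB1 on the opposite strand, and whether reads were counted by strand is not given in the sources used here. HNRNPUL1 averaged 323.6 and 249.7 TPM in sensitive and resistant U87 and 349 and 197.2 TPM in U118, that is lower where TGFB1 was higher.

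TGFB2 (ENSG00000092969, chromosome 1, 218346235 to 218444619, forward strand), the ligand first known from glioblastoma as an inhibitor of T cells, moved in opposite directions. It measured 0.946, 1.94 and 1.502 TPM in U87 sensitive and 2.61, 3.004 and 2.993 TPM in U87 resistant libraries. The groups did not overlap, and the log2 change of 0.67 (SE 0.184, adjusted p = 0.0268) was under the required size. In U118, TGFB2 was at 7.35, 6.11 and 9.64 TPM in sensitive and 3.38, 2.34 and 2.47 TPM in resistant libraries. All U118 resistant libraries were below all sensitive ones, and TGFB2 fell by 1.21 on the log2 scale (SE 0.250, adjusted p = 0.00368), or 2.82-fold in mean TPM. After median-ratio scaling the change was -0.75 and no longer called. The changes differed between the lines by -1.88 (SE 0.302, adjusted p = 0.000341). TGFB2 in U118 resistant cells (2.73 ± 0.564 TPM) lay within 0.06 on the log2 scale of its U87 resistant mean (2.87 ± 0.224 TPM).

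TGFB3 (ENSG00000119699, chromosome 14, 75958099 to 75982991, reverse strand), the third TGF-beta ligand, rose in U87. It measured 3.52, 4.54 and 3.69 TPM in U87 sensitive and 15.99, 15.05 and 16.91 TPM in U87 resistant libraries, a 4.08-fold rise in mean TPM. The log2 change was 1.79 (SE 0.142, adjusted p = 0.000204). In U118 the TPM was 2.65, 2.75 and 3.73 TPM in sensitive and 8.73, 4.08 and 4.597 TPM in resistant libraries. The U118 resistant libraries all lay above the sensitive ones, with replicate 1 the highest. The log2 change in U118 was 0.70 (SE 0.293, adjusted p = 0.0730) and not called, and it was called after median-ratio scaling, at 1.14. The difference between the lines was -1.10 (SE 0.341, adjusted p = 0.0237). That difference lost its call in 7 of 19 alternatives, where it lay between -1.06 and -0.92.

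Within the TGF-beta ligands, which do not depend on library scaling when set against each other, TGFB1 made up 97.6% ± 0.592 of the summed TPM in U87 sensitive and 92.9% ± 0.370 in U87 resistant cells (SD, n = 3 each). It made up 90.5% ± 1.33 in U118 sensitive and 94.8% ± 3.56 in U118 resistant cells. The TGFB3 share in U87 went from 1.75% ± 0.341 to 6.05% ± 0.363, with no overlap between libraries. The TGFB2 share in U118 went from 6.78% ± 1.10 to 1.63% ± 0.852, again with no overlap. In U118 the TGFB3 share was 2.68% ± 0.272 in sensitive cells and 6.74%, 1.84% and 2.28% in the resistant replicates, on both sides of the sensitive range. The summed TPM of the 3 ligands was 225 ± 12.5 and 264.4 ± 1.00 in sensitive and resistant U87 and 112.9 ± 10.5 and 184.2 ± 48.5 in U118.

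**Figure D3:**
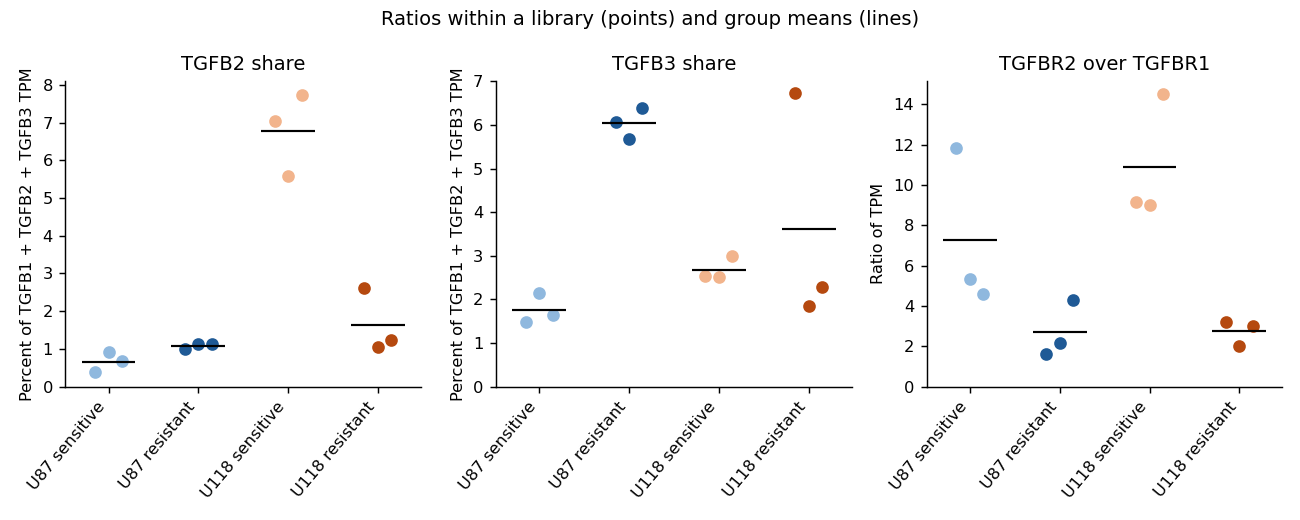
Shares of TGFB2 and of TGFB3 in the summed TPM of the 3 TGF-beta ligands, in percent, and the ratio of TGFBR2 to TGFBR1 TPM, with a point for each library and a line at the group mean. The TGFB3 share is highest in U87 resistant libraries and in U118 resistant replicate 1, the TGFB2 share in U118 sensitive libraries, and the receptor ratio is lower in resistant than in sensitive libraries of each line.

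The type I receptor TGFBR1 and the type II receptor TGFBR2 together bind TGF-beta, and their levels did not move together. TGFBR1 (ENSG00000106799, chromosome 9, 99104038 to 99154192, forward strand) measured 2.53, 4.38 and 4.38 TPM in U87 sensitive and 11.1, 5.92 and 7.77 TPM in U87 resistant libraries. In U118 it measured 6.25, 5.87 and 4.10 TPM in sensitive and 18.8, 9.53 and 7.57 TPM in resistant libraries. Every resistant library was above every sensitive one in both lines. The log2 change was 0.95 (SE 0.266, adjusted p = 0.0290) in U87 and 0.94 (SE 0.339, adjusted p = 0.0436) in U118, both just under the required size. It was called in 6 of 13 alternatives in U87 and in 5 of 13 in U118. The difference between the lines was -0.0085 (SE 0.459, adjusted p = 0.992), with a 95% interval from -1.01 to 0.99. A difference of up to about that size in either direction was therefore not excluded.

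TGFBR2 (ENSG00000163513, chromosome 3, 30606502 to 30694142, forward strand) measured 29.9, 23.5 and 20.1 TPM in U87 sensitive and 17.9, 12.9 and 33.4 TPM in U87 resistant libraries. The U87 groups overlapped, and the log2 change was -0.27 (SE 0.330, adjusted p = 0.554) with a 95% interval from -1.06 to 0.51. For TGFBR2 in U118, the values were 57.3, 52.9 and 59.5 TPM in sensitive and 60.3, 19.4 and 22.6 TPM in resistant libraries. Resistant replicate 1 lay above the sensitive libraries and replicates 2 and 3 far below them. The log2 change in U118 was -0.90 (SE 0.382, adjusted p = 0.0762), and without replicate 1 it was -1.39 (adjusted p = 0.000226) and called, so that library decided the call. The difference between the lines was -0.62 (SE 0.554, adjusted p = 0.402), and without that library -1.12 (adjusted p = 0.0413). The ratio of TGFBR2 to TGFBR1 was 7.25 ± 3.97 in U87 sensitive and 2.70 ± 1.42 in U87 resistant, and 10.9 ± 3.13 in U118 sensitive and 2.74 ± 0.623 in U118 resistant libraries (SD, n = 3 each). It was lower in all resistant than in all sensitive libraries of each line, also in U118 resistant replicate 1, at 3.20.

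The BMP members were low throughout. BMP2 (ENSG00000125845, chromosome 20, 6767664 to 6780280, forward strand), the gene of the ligand added to the medium, measured 0.708, 1.40 and 0.982 TPM in U87 sensitive and 1.37, 1.12 and 1.49 TPM in U87 resistant libraries. In U118 it measured 1.81, 1.76 and 1.66 TPM in sensitive and 2.89, 2.08 and 2.06 TPM in resistant libraries, which did not overlap. The log2 change was 0.21 (SE 0.167, adjusted p = 0.365) in U87, with a 95% interval from -0.19 to 0.60. In U118 it was 0.28 (SE 0.197, adjusted p = 0.261), with an interval from -0.17 to 0.72. Both intervals lay below a change of 1 on the log2(TPM + 1) scale. That scale understates changes of genes as low as BMP2, so no such bound holds for TPM itself. After median-ratio scaling the U118 change by limma was 0.65 (adjusted p = 0.0070), under the required size. BMP4 (ENSG00000125378, chromosome 14, 53949736 to 53958761, reverse strand), a BMP used to differentiate glioblastoma stem-like cells, was listed at 0 in all 6 U87 libraries. In U118 it measured 0.176, 0.0903 and 0.299 TPM in sensitive and 0, 0.0595 and 0.0364 TPM in resistant libraries, under the filter in both lines.

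**Figure D4:**
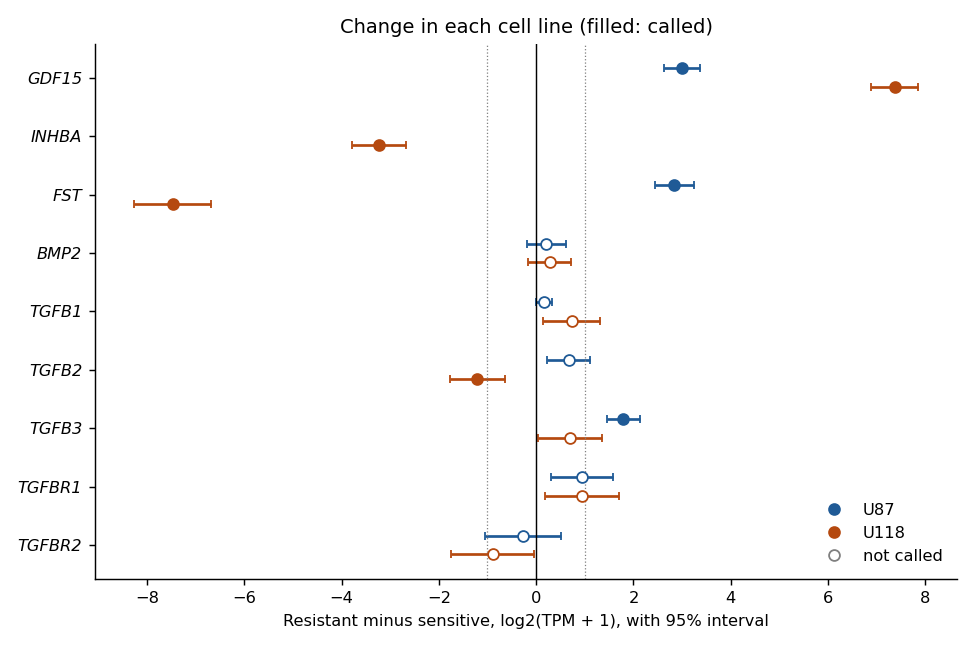
Change from sensitive to resistant cells on the log2(TPM + 1) scale for the genes that passed the filter, with 95% intervals, in U87 and in U118. Filled points were called at an adjusted p under 0.05 and a change of at least 1 (dotted lines). GDF15 lies right of 0 in both lines, FST lies on opposite sides, and BMP2 spans 0 in both.

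Of the 10 genes, 8 were tested in U87, and 3 of these were called higher (GDF15, FST and TGFB3) and 0 lower by limma, while 7.79% of all 13845 genes tested were called lower and 3.03% higher. Taken in either direction, 10.8% of all genes were called. At an unadjusted p under 0.05, 6 were higher and 0 lower, with TGFB1, TGFB2 and TGFBR1 added. The share of all genes at that threshold was not computed. The resistant libraries lay wholly above the sensitive ones for 6 of the 10 genes and wholly below for none, against 13.6% and 39.8% of all genes tested. In U118, 9 were tested, of which 1 was called higher (GDF15) and 3 lower (FST, INHBA and TGFB2), against 8.64% and 26.6% of all 15527 genes and 35.3% in either direction. INHBA is in that count only because it was high in the U118 sensitive libraries, through which alone it passed the filter. After median-ratio scaling the U118 split was 4 higher and 2 lower, with TGFB1, TGFB3 and TGFBR1 added and TGFB2 lost, and that of all genes moved from 1341 higher and 4134 lower to 2330 and 2004. In U87 it moved from 419 and 1078 to 685 and 526. Without U118 resistant replicate 1, 4 members were called lower. The libraries did not overlap for 5 genes that were higher and 4 that were lower in U118 resistant cells, BMP4 included, against 15.7% and 42.9% of all genes tested. Over all genes the median log2 change in U87 was -0.24 as deposited and -0.0018 after that scaling, and in U118 it was -0.52 and -0.03, so the changes given here as deposited lie relative to those shifts. The median over the members tested was 0.81 in U87 and 0.28 in U118. The members were chosen with results of these data known, so these counts describe them.

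The change differed between the lines for 5 of 9 members tested, with GDF15 higher in U118 than in U87 and TGFB2, TGFB3, INHBA and FST lower. INHBA could be tested here, too, only through the U118 sensitive libraries, where it was high. Over all 16382 genes tested, 12% were called higher, 18.5% lower and 30.5% in either direction. The order of levels, read on the TPM scale, which is per transcript length, changed with these. In U87 sensitive cells TGFB1 came first, then TGFBR2, then TGFB3, TGFBR1 and GDF15 with overlapping libraries between neighbours, then FST, TGFB2 and BMP2, again overlapping. In U87 resistant cells GDF15, TGFBR2 and FST overlapped behind TGFB1, ahead of TGFB3 and TGFBR1. In U118 sensitive cells FST came first, ahead of TGFB1 and TGFBR2, and INHBA, TGFB2 and TGFBR1 overlapped behind them. In U118 resistant cells GDF15 came first, ahead of TGFB1 and TGFBR2, and FST had dropped to overlap with BMP2. Set against the other 3 groups on the log2 scale, the U118 resistant mean was nearest to U87 sensitive for 4 members, to U87 resistant for 4, and to U118 sensitive for 1, BMP2. BMP4, listed at 0 in both U87 groups, was equally far from each of these. INHBA, near 0.1 TPM in U87, was almost as far from U87 sensitive (0.1439) as from U87 resistant (0.1364). The share of all genes nearest to each group was not computed, and the tables of the lines were deposited separately, so these counts only describe the members.

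The other genes of the pathway were read from 98 genes in 7 lists, of which 60 were tested in U87 and 61 in U118. In U87, 7 were called higher and 3 lower (11.7% and 5% of those tested, against 3.03% and 7.79% of all genes), or 11 and 2 after median-ratio scaling. In U118, 8 were called higher and 26 lower (13.1% and 42.6%, against 8.64% and 26.6% of all genes), or 15 and 16 after that scaling. Of these calls as deposited, 1 of the higher and 2 of the lower in U87, and 2 and 5 in U118, were of genes that reached 1 TPM in 1 group alone and could be tested only because they were high there. The members are among the 98 genes. Their median log2 change in the U87 fit was 0.07 and in the U118 fit -0.77, against -0.24 and -0.52 over all genes. A gene can stand in several lists. Shares of all genes at an unadjusted p under 0.05 were not computed, so list counts at that threshold stand without one.

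Among 33 ligands, most of which were under the filter, BMP7 was called higher in U87 beside GDF15 and TGFB3, where 3 of 9 tested were called higher and 0 lower by limma (6 and 1 at an unadjusted p under 0.05). Of all genes tested, 3.03% were called higher and 7.79% lower in U87, and 8.64% and 26.6% in U118. BMP7, a BMP of kidney and bone development, measured 0.204, 0 and 0 TPM in U87 sensitive and 6.01, 7.74 and 6.53 TPM in U87 resistant libraries, a log2 change of 2.86 (SE 0.157, adjusted p = 7.52e-05). It passed the filter there through the resistant libraries alone. BMP7 was under the filter in U118, at 0.1962, 0.2602 and 0.04187 TPM in sensitive and 0.8507, 1.734 and 1.475 TPM in resistant libraries. In U118, 1 of 11 was called higher and 4 lower, or 4 and 3 after median-ratio scaling, which added TGFB1, TGFB3 and INHBE, a hepatic activin subunit, and lost TGFB2. GDF6, a joint and eye patterning ligand, fell furthest, from 107.8, 96.5 and 91.7 TPM in the sensitive libraries to a listed 0 in all 3 resistant ones. It passed the filter through the sensitive libraries alone, and was listed at 0 in 5 of the 6 U87 libraries and at 0.0263 TPM in the other. GDF5, which acts in joint formation, measured 120.2, 124.2 and 89.3 TPM in U118 sensitive and 2.29, 1.19 and 0.861 TPM in U118 resistant libraries. Its log2 change was -5.55 (SE 0.279, adjusted p = 1.18e-06). In U87, GDF5 was at 13.2 to 14.5 TPM in sensitive and 17.5 to 20.2 TPM in resistant libraries. The log2 change there was 0.41 by limma (SE 0.115, adjusted p = 0.0283), under the required size. FST, GDF5 and GDF6 were thus all high in U118 sensitive cells and low in U118 resistant cells.

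Receptors and co-receptors had 0 of 11 tested called higher by limma in either line, with 4 higher at an unadjusted p under 0.05 in U87 and 1 in U118. Only 3.03% of all genes were called higher in U87 and 8.64% in U118, so 0 of 11 is not read as a result about them. The shares called lower were 7.79% and 26.6%. In U87, 1 was lower, ACVRL1, the type I receptor of endothelial BMP signalling, with a log2 change of -1.36 (SE 0.185, adjusted p = 0.00166). It measured 2.62, 2.41 and 2.06 TPM in U87 sensitive and 0.04891, 0.333 and 0.599 TPM in U87 resistant libraries, and passed the filter through the sensitive ones alone. ACVRL1 was also called lower in U118 (-1.15, SE 0.179, adjusted p = 0.000821), again through the sensitive libraries alone. That U118 call was not made after median-ratio scaling. In U118, 6 were lower, or 3 after median-ratio scaling, which called TGFBR1 higher in both lines. TGFBR3, the co-receptor betaglycan, averaged 11.4 ± 0.950 TPM in U118 sensitive and 2.65 ± 0.534 TPM in U118 resistant libraries (SD, n = 3 each), a log2 change of -1.77 (SE 0.231, adjusted p = 0.000309). BMPR1B and BMPR2, a type I and the type II receptor of BMPs, changed by -1.77 (SE 0.196, adjusted p = 0.000112) and -1.67 (SE 0.226, adjusted p = 0.000376) in U118. BMPR1B measured 2.08, 3.56 and 2.67 TPM in U118 sensitive and at most 0.133 TPM in U118 resistant libraries, and passed the filter through the sensitive ones alone.

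Of the extracellular inhibitors, 2 of 8 tested were called higher and 0 lower by limma in U87 (4 and 0 at an unadjusted p under 0.05). After median-ratio scaling 3 were higher in U87. In U118 there were 2 higher and 4 lower, or 2 and 2 after that scaling. As deposited, 3.03% of all genes were called higher and 7.79% lower in U87, and 8.64% and 26.6% in U118. NBL1, a BMP antagonist also called DAN, rose in U87 beside FST, from 3.16 ± 0.308 to 12.1 ± 0.369 TPM (SD, n = 3 each). GREM1, the BMP antagonist gremlin, measured 0.0174, 0.0111 and 0.0109 TPM in U118 sensitive and 34.98, 8.996 and 10.67 TPM in U118 resistant libraries. It passed the filter in U118 through the resistant libraries alone, and was at 5.44 to 9.82 TPM in all U87 libraries. BAMBI, a pseudoreceptor that dampens TGF-beta signalling, rose in U118 from 2.79 ± 0.371 to 8.57 ± 2.08 TPM and was at 70.3 to 81.5 TPM in U87. CHRDL1, a chordin-like BMP antagonist, and FSTL3, a follistatin relative that also binds activin, fell in U118 by 1.40 and 1.06 on the log2 scale (SE 0.379 and 0.268, adjusted p = 0.0137 and 0.0102). The FSTL3 call was not made after median-ratio scaling.

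The genes of latency and activation had 1 of 8 tested higher and 0 lower by limma in U87 (4 and 3 at an unadjusted p under 0.05). After median-ratio scaling 2 were higher in U87, with LTBP3 added. In U118 there were 2 higher and 2 lower, or 4 and 2 after that scaling, with LTBP4 and FURIN added. For these genes and the SMADs below, the all-gene shares were 3.03% higher and 7.79% lower in U87, and 8.64% and 26.6% in U118. LRRC32, which tethers latent TGF-beta at the cell surface, rose in U87 from 1.80 ± 0.715 to 9.67 ± 1.84 TPM (SD, n = 3 each) and was at most 0.309 TPM in U118. LTBP1, which binds latent TGF-beta in the matrix, fell in U118 from 281.4 ± 26.8 to 44.8 ± 13.3 TPM. THBS1, a thrombospondin that can activate latent TGF-beta, changed there by -2.56 (SE 0.361, adjusted p = 0.000472). LTBP2 and LTBP3 rose in U118, by 1.52 and 1.11 (SE 0.386 and 0.223, adjusted p = 0.0105 and 0.00321). Among the SMADs and their regulators 0 were called higher by limma in either line (1 in U87 and 0 in U118 at an unadjusted p under 0.05), with 1 of 13 lower in U87 and 6 of 12 lower in U118, or 3 after median-ratio scaling. SMAD9, a BMP-type SMAD, fell in U87 by 1.38 on the log2 scale (SE 0.206, adjusted p = 0.00241), from 2.63, 4.75 and 2.76 TPM to 0.628, 0.742 and 0.558 TPM, and passed the filter through the sensitive libraries alone. SMAD9 was under the filter in U118, at 1.115, 0.959 and 1.416 TPM in sensitive and 0.1767, 0 and 0.1475 TPM in resistant libraries. SMAD6, an inhibitory SMAD, fell in U118 from 26.5 ± 4.75 to 2.98 ± 2.09 TPM, and the ubiquitin ligase gene SMURF2 and the co-repressor gene SKI changed by -2.03 and -1.99 (SE 0.241 and 0.198, adjusted p = 0.000167 and 5.60e-05).

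The response genes went in both directions. Of 9 TGF-beta response genes tested, 1 was called higher and 1 lower in U87, or 2 and 0 after median-ratio scaling. U118 had 4 higher and 4 lower, or 5 and 1 after that scaling. All genes together had 3.03% higher and 7.79% lower in U87, and 8.64% and 26.6% in U118, as deposited. PMEPA1, a feedback inhibitor induced by TGF-beta, rose in both lines. It measured 0.714, 0.994 and 1.12 TPM in U87 sensitive and 5.63, 5.80 and 6.13 TPM in U87 resistant libraries, and 0.690, 0.575 and 0.372 TPM in U118 sensitive and 7.36, 3.72 and 4.03 TPM in U118 resistant libraries. In U118 it passed the filter through the resistant libraries alone. TGFBI, a matrix protein gene named for its induction by TGF-beta, rose in U118 from 29.8, 32.1 and 30.7 TPM to 1061, 342.8 and 365.6 TPM, and was at 671.2 to 1308 TPM in U87. BHLHE40, a transcription factor gene, rose in U118 by 2.16 (SE 0.215, adjusted p = 5.80e-05). TAGLN, a smooth muscle actin-binding protein gene, changed by -1.17 in U87 (SE 0.165, adjusted p = 0.00193), a call not made after median-ratio scaling, and by -2.32 in U118 (SE 0.348, adjusted p = 0.000668). CCN2 and SKIL were also called lower in U118 by limma, at -1.44 and -1.385 (SE 0.217 and 0.286, adjusted p = 0.00068 and 0.00377). Neither of these calls was made after median-ratio scaling. Of 8 BMP response genes tested, limma called 0 in U87, where 3 were higher and 2 lower at an unadjusted p under 0.05.

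In U118, 1 BMP response gene was called higher and 4 lower, against 8.64% and 26.6% of all genes, or 1 and 3 after median-ratio scaling. ID1, an inhibitor of differentiation that BMPs induce directly, measured 1179, 1088 and 741.3 TPM in U118 sensitive and 345.2, 198 and 196.4 TPM in U118 resistant libraries, a log2 change of -2.04 (SE 0.295, adjusted p = 0.000541). ID4, of the same family, went from 2.24, 1.57 and 1.76 TPM to a listed 0 in all 3 U118 resistant libraries. BAMBI was the gene called higher. ID4 passed the filter there through the sensitive libraries alone. The calls among receptors, SMADs and BMP response genes in U118 were on the lower side but for BAMBI, and 26.6% of all genes were called lower there.

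**Figure D5:**
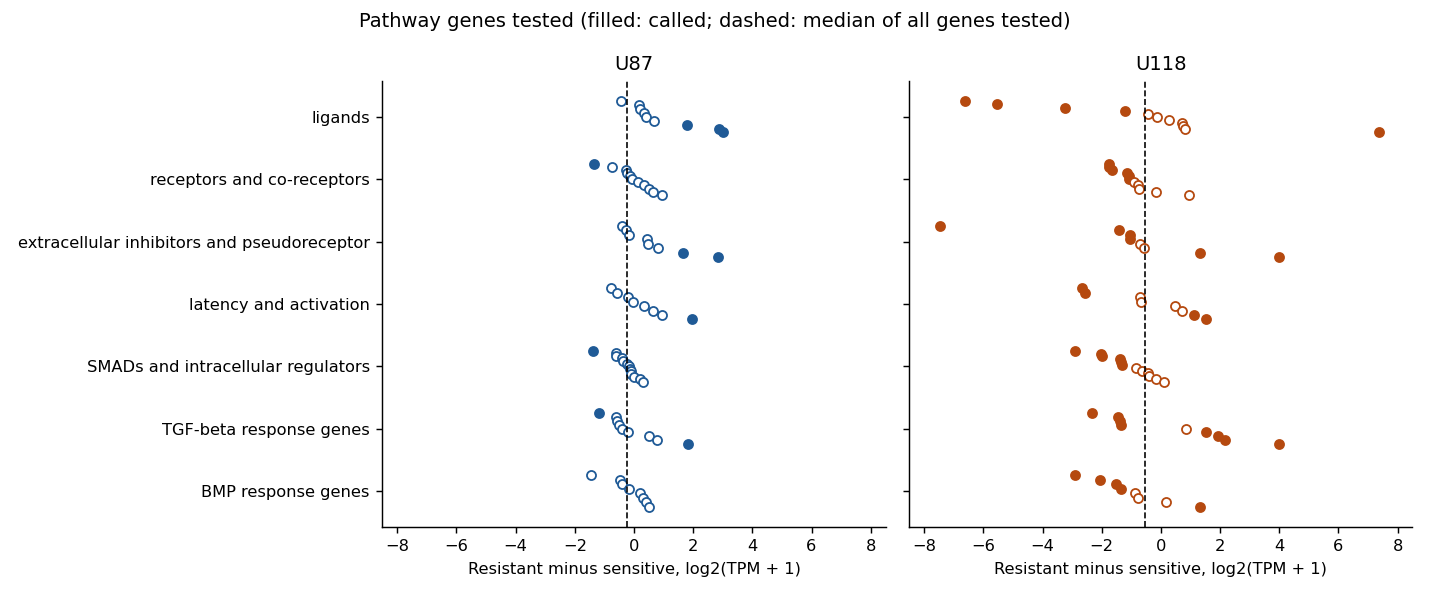
Log2 change from sensitive to resistant cells of each pathway gene tested, by list, in U87 (left) and U118 (right). Filled points were called, and the dashed line is the median of all genes tested, -0.24 in U87 and -0.52 in U118. Calls are few in U87, and in U118 lie mostly left of 0 for receptors, SMADs and BMP response genes.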

How the data were processed

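mRNA libraries of U87 and U118 sensitive and resistant cells were compared, 3 per group. The authors deposited TPM values for 58174 genes, in a separate table per line. The submitters' notes name FastQC 0.11.2, Trimmomatic 0.36, HISAT2 2.0, bedtools 2.26.0 and GRCh38, with no roles. The quantification tool, its annotation and its strand setting are not given in the sources used here. TPM keeps no counts, so depth is unknown and no count test was run.

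Within each line, a linear model of log2(TPM + 1) was fitted in R 4.3.3 by limma 3.58.1, using lmFit and a trended eBayes. Genes entered it when 3 or more of the 6 libraries reached 1 TPM. The difference between lines was an interaction over all 12 libraries, with the same minimum in 3 or more of them. A call needed a log2 change of at least 1 and an adjusted p (Benjamini-Hochberg, over all genes tested) under 0.05. The fit was tested on simulated data. Errors of TPM are SDs. Symbols were matched for 57392 identifiers, and gene positions are from GENCODE release 29. Python 3.11.15 with pandas 2.3.3 was used for the tables, and figures were drawn with matplotlib 3.10.9.

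The 10 members, the 7 pathway lists, the marker lists and the tests were chosen with earlier results of these data known. Named besides the members were, per list and line, at most 3 called genes that rose most and 3 that fell most, and the 3 genes closest in pattern to GDF15, FST and INHBA. GFRAL, INHA, ACVR1B, ACVR2A, HNRNPUL1, genes called only after rescaling and the markers given singly were named after their values were seen. The alternatives were pseudocounts of 0.1 and 0.001, no filter, a filter on a mean of 10 TPM, libraries rescaled by median ratio, TPM without mitochondrially encoded genes, a replicate block, eBayes without trend, no limit on the change, and leaving out each library. All 12 columns were used. A marker gene of the blood cell list is not reported here.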

Additional observations from a re-analysis of the deposited data

Results flagged for a closer look

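The change from sensitive to resistant cells differed between U118 and U87 for 5 genes by the limma interaction over all 12 libraries. The difference, U118 change minus U87 change on the log2(TPM + 1) scale, was -10.32 for FST (adjusted p = 3.18e-09), with a rise in U87 and a fall in U118. It was 4.37 for GDF15 (adjusted p = 3.51e-08), which rose in both lines. It was -3.24 for INHBA (adjusted p = 5.64e-07), which was near 0.1 TPM in both U87 groups. INHBA passed the filter through the U118 sensitive libraries alone, so it could be tested only because it was high there. It was -1.88 for TGFB2 (adjusted p = 0.000341) and -1.10 for TGFB3 (adjusted p = 0.0237). Over all 16382 genes tested, 30.5% had such a difference. The U118 resistant libraries correlated less with U118 sensitive than with U87 libraries, and the part of that in these differences was not tested.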

How the results depend on the processing

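GDF15 and FST were called in both lines, TGFB3 in U87 and INHBA in U118 under every alternative that tested them. INHBA was under the filter when a U118 sensitive library was left out and under a mean of at least 10 TPM. Members called higher in U87 were 3, and 5 with a pseudocount of 0.001 or with no limit on the change. Members called higher in U118 were 1, and 2 with a pseudocount of 0.1, 4 after median-ratio scaling, 2 without mitochondrially encoded genes and 3 with no limit on the change, and from 1 to 2 with a library left out. Members called lower in U118 were 3, and 1 with a mean of at least 10 TPM. Members called lower for the difference between lines were 4, and 1 with a mean of at least 10 TPM, and from 2 to 5 with a library left out (2 without U118 sensitive replicate 3). A mean of at least 10 TPM tests fewer genes. With no limit on the change the call drops that limit by construction. The cause of the other shifts was not tested.

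Of all genes, 419 were called higher and 1078 lower in U87, and 175 and 630 with a mean of at least 10 TPM, 685 and 526 after median-ratio scaling and 1306 and 4107 with no limit on the change. With a U87 library left out the higher count ran from 274 to 480. In U118, 1341 and 4134 became 536 and 2152, and 2330 and 2004, under the first and second of these. With a U118 library left out the higher count ran from 767 (without resistant replicate 1) to 1353, and was 858 and 796 without resistant replicates 2 and 3.

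Reversed signs were all of uncalled values. TGFBR2 in U87 ran from -0.63 to 0.019 with a library left out (0.019 without U87 resistant replicate 2). The BMP2 difference between lines was -0.00018 with a pseudocount of 0.001, and ran from -0.058 to 0.19 with a library left out. The TGFBR1 difference was 0.17 after median-ratio scaling, 0.039 without mitochondrially encoded genes, and from -0.36 to 0.24 with a library left out.

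Same-numbered sensitive and resistant libraries had deviations from their group means correlated at -0.07 to 0.01 in U87 and 0.05 to 0.14 in U118. Differently numbered ones lay at -0.06 to 0.08 in U87 and -0.11 to 0.04 in U118, so in U118 the same-numbered values were the higher ones. The main fit did not take the numbers as pairs, and the replicate block gives the fit that does. With the replicate block 3 members were called higher in U87, 1 higher and 3 lower in U118, and 414 and 1040 of all genes in U87 and 1363 and 4218 in U118, and no member's call changed. The adjusted p of TGFBR2 in U118 by limma was 0.0090 with the block and 0.0762 without it. Depth is unknown, so no detection limit can be given for the genes listed at 0.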
